A study of Mus musculus with 4 samples.

Results

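The regions described here are stretches of convergent transcription that were called in sorted early G1 B cells and not in unsynchronized B cells. The lists of 4 global run-on sequencing (GRO-seq) libraries were joined, and regions with at least 1 base in common became 1 merged region, which gave 20175. Of these, 747 had a call in both early G1 libraries and in neither unsynchronized library, and these 747 are called early G1-only regions below. They made up 3.70% of all merged regions and 10.6% of the 7031 regions that both early G1 libraries held. The regions were chosen by the presence or absence of a call in each library, so number, signal and called length are given as descriptions, without a test. The lists give no value where no region was called, so an unsynchronized level cannot be stated for any of the 747, and nothing shows that it was 0.

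All libraries came from splenic B cells of C57BL/6 mice with the genotype Fucci-EGFP+, whose green reporter follows the cell cycle. The cells were activated in culture with LPS, with the cytokine IL4 and through Rp105, a receptor on the B cell surface. The 2 unsynchronized libraries were made from such cells without selection for a cell cycle phase. For the 2 early G1 libraries, nocodazole, which blocks cells in mitosis, was present at 100 ng/ml for 6 h from 42 h after isolation. EGFP+ cells, mostly in G2 or M phase, were then sorted and cultured for a further 1.5 h, after which a second sort took early G1 cells. The name deposited for early G1 replicate 1 gives 1 h in place of 1.5 h, and it is not known which is right. Nuclei of about 20000000 cells entered each run-on. Nocodazole, the sorts and the return to culture are described for the early G1 cells, so their effects and those of the cell cycle phase cannot be told apart. Whether the replicates are separate mice or cultures is not stated in the labels, and spreads between them, and p-values, may therefore reflect technical differences alone.

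In GRO-seq, RNA polymerases already engaged on DNA extend their transcripts in isolated nuclei with a labelled nucleotide, and the labelled RNA is sequenced with its strand. Convergent transcription is the case in which polymerases on opposite strands run towards each other over the same DNA. In activated B cells such sites have been studied because they have been linked to the places where activation-induced deaminase, the enzyme that mutates antibody genes, also acts on other genes. Early G1 is the phase just after division, when transcription that was largely shut down in mitosis starts again.

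The unsynchronized lists held 12538 and 11961 regions, and the early G1 lists 12768 and 10708. The authors gave each region a signal that they called a geometric mean, with no scaling stated. Numerically it was the square root of the product of 2 whole read counts, taken here as those of the 2 strands, over the region's length and a constant of the library. If that constant acts as it does in RPKM, the libraries held 14720000 and 13480000 reads (unsynchronized) and 8170000 and 9520000 reads (early G1). The early G1 libraries would then be 0.627 times as deep, so the regions described here were called in the shallower libraries. A number of "reads" below is the geometric mean of the read counts of both strands, recovered in this way. Genes are not named, because the lists use the mouse build mm9 and the gene table used here is of another build. For the same reason the labelled cell type was not checked against marker genes.

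The number 747 depends on having 2 libraries per state. Applying the rule to 3 libraries gave 1564 regions without unsynchronized replicate 1 and 1271 without unsynchronized replicate 2. With replicate 1 or replicate 2 of early G1 left out, it gave 2627 and 3202. The reverse pattern, a call in both unsynchronized libraries alone, was found in 1004 regions, or 4.98% of all merged regions. Of the regions that both unsynchronized libraries held, 12.6% lacked an early G1 call.

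Early G1-only regions were short. Their merged length had a median of 967 bp, with quartiles of 618.5 and 1435 bp and a range of 130 to 15839 bp. Regions called in all 4 libraries had a median of 1641 bp and those called only in unsynchronized cells one of 1087 bp. Merging over 4 libraries can only extend a region, so lengths over 4 and over 2 libraries are not like for like. Within a library, the called length was summed over a region's calls. Its median was 779 bp in early G1 replicate 1 and 688 bp in replicate 2 for early G1-only regions. For regions called in all 4 libraries it was 1267.5 and 1059.5 bp in the same libraries. Of the early G1-only regions, 117 were below 500 bp, 270 were of 500 to 1000 bp and 257 of 1000 to 2000 bp. Only 15 (2.01%) reached 5000 bp, against 80 (7.97%) of the unsynchronized-only regions. Among all regions held by both early G1 libraries, the share without an unsynchronized call was lower in each longer class, from 17.8% below 500 bp to 2.30% at 5000 bp or more. A longer region has more bases that an unsynchronized call can share, and merging through such a call can join early G1 calls. The rule itself thus leans towards short regions, and the trend was not tested apart from it.

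In early G1 cells these regions were of middling strength. Their median signal was 17.1 in replicate 1 and 18.2 in replicate 2. The quartiles were 10.6 and 28.9 in replicate 1 and 11.5 and 30.4 in replicate 2. Within the list of its own library, the median region stood at the 49.7th and 45.1st percentile, close to the middle. Regions called in all 4 libraries stood higher, at the 70.5th and 63.7th percentile of the same lists. Unsynchronized-only regions stood lower, at the 33.6th and 32.7th percentile of the unsynchronized lists. The same contrast appeared at the top: 30 early G1-only regions (4.02%) were above the 90th percentile of both early G1 lists, against 16 unsynchronized-only regions (1.59%) above that of both unsynchronized lists. Both shares were below those of regions called in all 4 libraries, which were 11.5% in the early G1 lists and 13.4% in the unsynchronized lists.

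**Figure D1:**
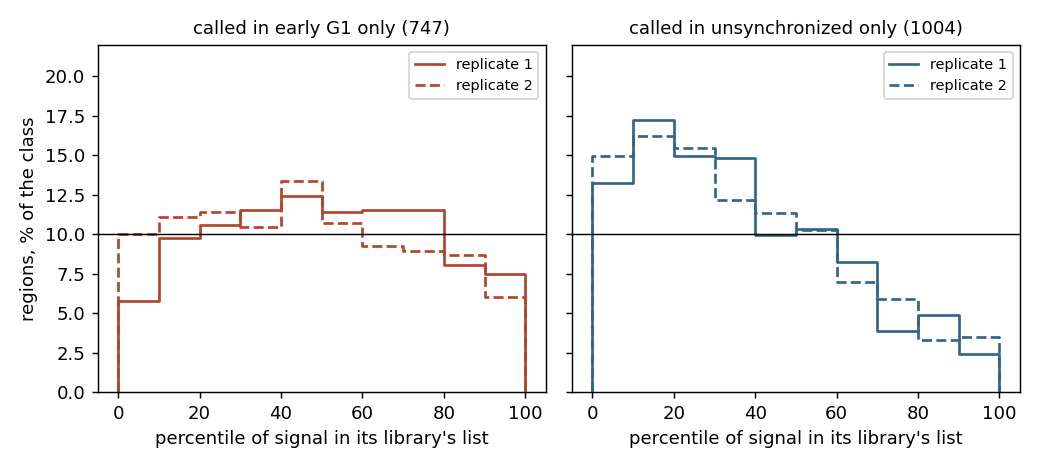
Percentile of each region's signal within the list of its own library (x axis) against the share of regions in each class of 10 percentiles (y axis, % of regions), for the 747 early G1-only regions (left, early G1 lists) and the 1004 unsynchronized-only regions (right, unsynchronized lists). The black line marks the 10% that an even spread would give; the early G1-only regions lie near it, with medians of 49.7 and 45.1, and the unsynchronized-only regions lean to low percentiles, with medians of 33.6 and 32.7.

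Weak regions were more often without an unsynchronized call. The 7031 regions of both early G1 libraries were divided into 5 classes of equal size by the lower of their early G1 signals. In the weakest class 251 of 1407 regions (17.8%) were early G1-only, and in the strongest 77 of 1406 (5.48%). The classes between them gave 12.3%, 10.3% and 7.18%, so each stronger class had a lower share. Signals as such were nonetheless not low for an unsynchronized list. A region at the members' median early G1 signal would have ranked at the 70.6th to 73.1st percentile in the list of unsynchronized replicate 1 and at the 55.9th to 58.7th in that of replicate 2. These ranks set signals side by side with the authors' scaling, under which the regions shared by all 4 libraries also lay higher in early G1, with a median log2 change of 0.41.

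The depth behind a single region was modest. The median region held 113 reads in replicate 1 and 128 in replicate 2, which leaves a counting error of at least 6.65% and 6.24% of its signal. At least 100 reads in both libraries were present in 333 regions (44.6%), and at least 500 in 21. In 47 regions (6.29%) one of the early G1 calls held under 20 reads, and in 6 a library's signal was 0. These errors cover counting alone, since PCR duplicates cannot be seen in region lists.

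Both early G1 libraries gave similar levels for most of these regions. Of the 741 regions with a signal above 0 in both, 597 (80.6%) agreed within 2-fold and 22 differed over 4-fold. The median size of the log2 ratio between replicates was 0.50, and 341 regions were higher in replicate 1, so neither replicate was higher throughout. For regions called in all 4 libraries, 83.6% agreed within 2-fold in the same pair. Across the 747 regions, log2(signal + 1) in the replicates correlated with Pearson's r = 0.71 (Spearman's rho = 0.70). This is a description across regions that share 2 libraries and their depth.

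**Figure D2:**
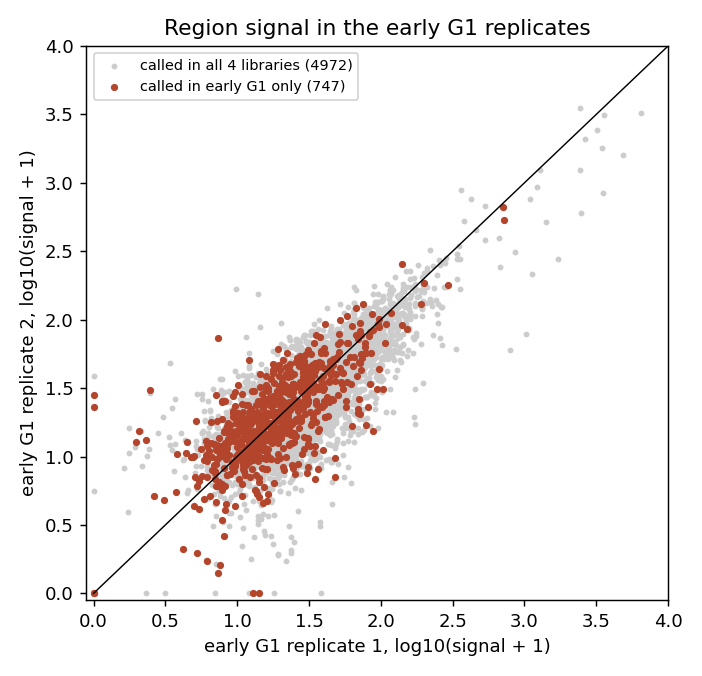
Signal of each region in early G1 replicate 1 (x axis) and replicate 2 (y axis), both as log10(signal + 1), with the line of equal signal; red points are the 747 early G1-only regions and grey points the 4972 regions called in all 4 libraries, of which the strongest lies beyond the axes. The red cloud follows the line (r = 0.71 on the log2 scale) within the lower part of the grey one, and a pair of red points near 2.8 on both axes stands apart.

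Their outlines were reproduced in part. In 713 of the 747 regions (95.4%) the early G1 calls shared at least 50% of the shorter call. Over the whole span of both calls the median overlap was 62.8%, against 76.5% for the same libraries in regions called in all 4. At least 1 edge lay within 50 bp in both libraries in 433 regions (58.0%), and both edges did in 94 (12.6%). The corresponding shares for regions called in all 4 libraries were 62.9% and 18.2%, and for unsynchronized-only regions in their own libraries 55.2% and 12.2%.

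Among the strongest early G1-only regions, taken by the lower of their early G1 signals, the first 2 stood far above the rest. At chr1:72301601-72301830, only 230 bp long, the signals were 709 and 669 (688.8 ± 28.1, SD, n = 2) on 793 and 1465 reads. A call of unsynchronized replicate 1 lay 310 bp away, whereas the nearest of replicate 2 lay 17.4 kb away. At chr11:68886923-68888149 the signals were 724 and 534 (629 ± 134, SD, n = 2) on 6883 and 6236 reads, the most of any early G1-only region. Both regions stood at the 99.8th percentile of each early G1 list. The calls of the chromosome 11 region covered 1165 and 1227 bp and overlapped over 94.9% of their span, and no unsynchronized call lay within 6.57 kb.

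The third and the fourth strongest were nearly identical in outline in both libraries. At chr16:23107819-23108385 the calls of 565 and 564 bp had signals of 199.6 and 184 (192 ± 11.0, SD, n = 2). At chr11:62416373-62416982 both libraries called the same 610 bp, with signals of 293 and 179 (236 ± 80.8, SD, n = 2). Unsynchronized calls lay 742 bp from the former, in replicate 2, and 766 and 782 bp from the latter, in both replicates. These regions were thus strong, reproducible in position and yet next to DNA that was called in unsynchronized cells.

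The next in order were on chromosomes 7, 11, 13 and 19. At chr7:29136513-29137084 the signals were 140.2 and 252 (196 ± 79.1, SD, n = 2), the least alike of the 10. The signals at chr11:101519710-101520561 were 189 and 128 (159 ± 42.6, SD, n = 2) with 14.3 kb to the nearest unsynchronized call. At chr19:32786854-32787317 they were 117 and 111 (114 ± 3.89, SD, n = 2) with 41.5 kb. Both of the latter were therefore strong regions without a nearby call in unsynchronized cells. The remaining 3 had signals of 91.3 to 108 and were at chr7:135604851-135605183, chr13:65379928-65380261 and chr11:115885399-115885812. Their nearest unsynchronized calls were 61.8, 26.9 and 6.13 kb away. Of all 747 regions, 41 had a signal above 50 in both early G1 libraries and 7 one above 100.

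The longest early G1-only regions, ranked by the shorter of the early G1 calls, had ordinary signals. At chr7:135833525-135843225 the calls were 9544 and 8813 bp long, with signals of 16.3 and 35.7 on 1267 and 2997 reads. At chr3:40612515-40628353 they were 7455 and 15839 bp long, so that replicate 2 called the longer stretch. The calls were 7024 and 8255 bp at chr3:106531191-106539475 and 8244 and 6301 bp at chr2:38867431-38875972. The last 2 of the 6 were chr7:29178257-29186120 and chr7:134648242-134655278, with signals between 8.97 and 14.6. Only these 6 regions had calls over 5000 bp in both libraries. Some had unsynchronized calls close by: 40 bp from the chromosome 2 region in replicate 1, and 188 and 260 bp from chr7:134648242-134655278 in both replicates.

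The regions were scattered over the genome. Members were found on 20 of the 22 chromosomes with any region, and not on chromosome Y or the mitochondrial genome, which held 4 merged regions and 1. On the other 20, they made up between 2.93% (chromosome 13, 25 of 853) and 4.80% (chromosome 14, 34 of 709) of the merged regions. The 95% Wilson interval was 1.99% to 4.29% for the former and 3.45% to 6.63% for the latter. Each of the 20 intervals held the share of the whole genome, 3.70%. The intervals cover counting error only and treat regions as independent, so an even spread was not tested by them. By number, chromosome 11 held most (66), followed by chromosome 2 (65) and chromosome 1 (50), as these also held many merged regions. Relative to the regions of both early G1 libraries, the share ran from 8.48% on chromosome 7 to 13.4% on chromosome 14. On chromosome X, 15 of 460 merged regions (3.26%) were early G1-only.

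**Figure D3:**
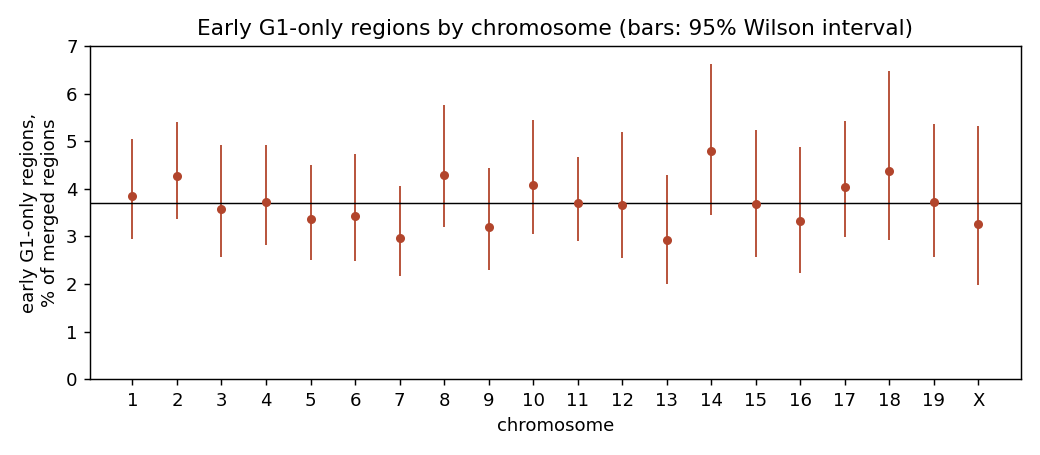
Early G1-only regions as a share of the merged regions of each chromosome (y axis, %), for the 20 chromosomes that hold any; bars are 95% Wilson intervals, which cover counting error only, and the line is the share of the whole genome (3.70%). The shares run from 2.93% on chromosome 13 to 4.80% on chromosome 14 and each bar crosses the line.

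Early G1-only regions lay beyond 100 kb from regions called in all 4 libraries more often than other classes of regions did. Position was not used by the rule, but regions are not replicates, so the distances are described without a test. The median distance to the nearest region of all 4 libraries was 45.9 kb, with quartiles of 12.3 and 183 kb and a range of 12 bp to 5371 kb. The median was 37.3 kb for unsynchronized-only regions, 40.8 kb for other regions called in 2 or 3 libraries and 39.9 kb for regions called in a single library. The classes differed little at short range: 22.9% of the early G1-only regions were within 10 kb, against 24.1%, 24.5% and 24.7%. At long range they differed more. Beyond 100 kb lay 261 early G1-only regions (34.9%), against 27.7%, 29.5% and 29.2% of the other classes. Regions called in early G1 replicate 1 alone or replicate 2 alone gave 29.6% and 30.7%. In the other measures those of replicate 2 alone resembled the members, with a median of 45.0 kb and 22.8% within 10 kb. For replicate 1 alone the values were 35.8 kb and 27.7%.

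The long distances did not belong to weak regions alone. Among members whose lower early G1 signal was above the members' median, 35.7% lay beyond 100 kb, and among the others 34.2%. The members' share beyond 100 kb exceeded that of the unsynchronized-only regions in each of the 6 other settings compared. The excess ran from 3.84 percentage points (without early G1 replicate 2) to 10.1 (signals above the 25th percentile of each library). The other classes were not compared in these settings, and this share was added after the distances had been seen. The median distance itself was 27.4 kb without early G1 replicate 2, slightly below the 28.8 kb of unsynchronized-only regions there. It was 73.6 kb against 48.9 kb with signals above the 25th percentile.

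Distances were also taken to the nearest call of any unsynchronized library. They can exceed those to shared regions only where an early G1 call forms the near edge of the shared region. At chr11:83037994-83039555, for example, they were 131 bp to the call and 12 bp to the shared region. The nearest unsynchronized call was a median of 10.5 kb away, and 367 regions (49.1%) had one within 10 kb. Regions called in a single early G1 library were closer to an unsynchronized call, with medians of 6.79 kb (2389 regions of replicate 1) and 7.60 kb (1764 of replicate 2). For unsynchronized-only regions the nearest early G1 call was a median of 8.68 kb away. In 84 early G1-only regions (11.2%) no unsynchronized call lay within 100 kb, against 7.27% in the reverse comparison. Of the 333 regions with at least 100 reads in both early G1 libraries, 159 had no unsynchronized call within 10 kb and 30 had none within 100 kb.

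**Figure D4:**
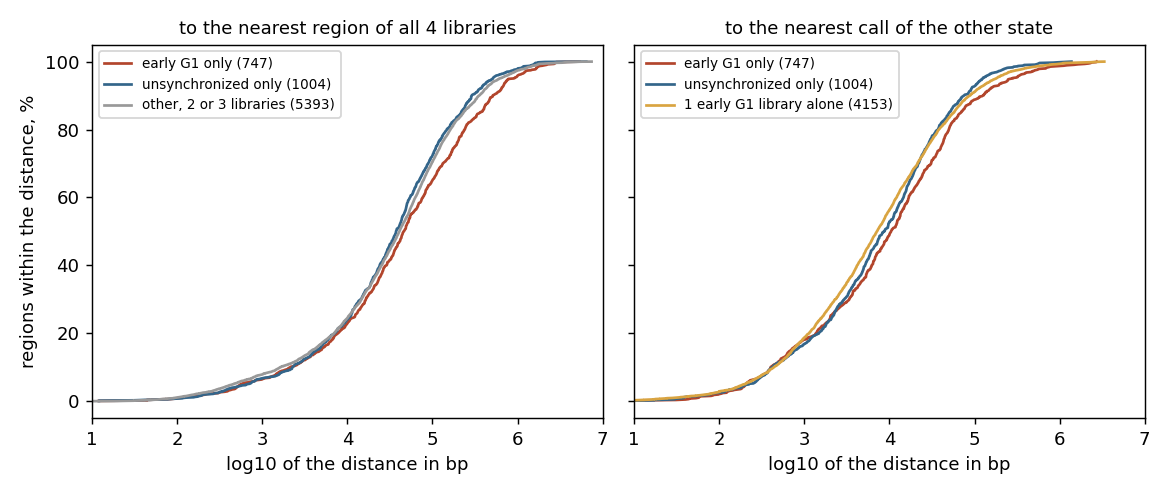
Cumulative share of regions (y axis, %) within a distance of the nearest region called in all 4 libraries (left) or of the nearest call of the other state (right; for regions of early G1 cells an unsynchronized call, for unsynchronized-only regions an early G1 call), on x axes of log10 distance in bp. On the left, the curve of the 747 early G1-only regions runs with the others up to about 10 kb, where 22.9% of them lie. It runs below them at longer distances, reaching 65.1% at 100 kb. On the right, 49.1% of the early G1-only regions lie within 10 kb, against 52.9% of the unsynchronized-only regions. The shares there are 57.1% and 55.4% for regions of early G1 replicate 1 alone and replicate 2 alone.

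A share of the early G1-only regions bordered on unsynchronized calls. In 135 regions (18.1%) an unsynchronized call lay within 1 kb. It came from both unsynchronized libraries in 63 of them, from replicate 1 alone in 43 and from replicate 2 alone in 29. The neighbouring call had a median length of 957 bp and a median signal of 12.8, against 19.5 for these members, and the member had the higher signal in 83 of the 135 cases. With the same scaling, 78.0% of all 4972 regions called in all 4 libraries had the higher signal in early G1. That share compares the same region between states, whereas the count of 83 compares adjacent stretches of DNA. Whether members are stronger was therefore not tested by this count. With lists merged within 1 kb, 652 early G1-only regions were found in place of 747.

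The rule counts a region as shared once a single base overlaps, and the regions at that limit were as follows. Just inside it were chr17:32421218-32421689, chr7:127778696-127779664 and chr14:18814763-18816130, with gaps of 8, 10 and 31 bp to an unsynchronized call. Their signals were 18.6 and 45.6, 16.4 and 14.2, and 10.8 and 13.8 in early G1 replicates 1 and 2. Just outside it were chrX:12924256-12924898, chr11:85047860-85048814 and chr17:31968194-31969868, which shared 7, 9 and 14 bp with a single unsynchronized call. Those had early G1 signals of 46.6 and 38.4, 19.9 and 25.1, and 1.31 and 6.65. The levels on both sides of the limit overlapped. Few regions were this close to it: of 1270 regions of both early G1 libraries with 1 unsynchronized call, 3 overlapped it by under 50 bp and 10 by under 100 bp. On the inside, 16 of the 747 lay within 100 bp of an unsynchronized call. With unsynchronized overlaps under 10% of the region not counted, the rule gave 774 regions.

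The regions farthest from any region of all 4 libraries were found in wide stretches without such regions. At chr4:71860733-71861975 the distance was 5371 kb, and the signals were 5.30 and 9.51 on 54 and 84 reads. At chr10:107599131-107599897 and chr10:107627058-107628690, which lie 27.2 kb apart, the distances were 2847 and 2818 kb. The former had signals of 23.5 and 28.4 and the latter of 17.5 and 19.4, so the latter was near the members' medians of 17.1 and 18.2 and the former above them in both libraries. The unsynchronized call nearest to the former was 2321 kb away, and that nearest to the latter 2349 kb. The fourth, chr1:30929772-30932845, was 2794 kb away, with signals of 6.88 and 24.5.

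The members nearest to a region of all 4 libraries all but touched it. At chr11:83037994-83039555 the gap was 12 bp, with early G1 signals of 27.9 and 39.7. At chr18:38496258-38497891 and chr8:97226691-97227386 it was 44 bp, with signals of 6.44 and 5.41 in the former and 25.7 and 18.4 in the latter. At chr15:79518413-79520524 it was 57 bp, where replicate 2 held 7 reads and replicate 1 held 126.

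Most early G1-only regions had no other one within 100 kb. The nearest other one was a median of 523 kb away, and 171 regions (22.9%) had one within 100 kb. This spacing was not measured in other classes of regions, so whether it is wide or close for so many regions was not tested. Groups of at least 3 within 100 kb numbered 13 and took in 40 regions (5.35%). The largest, with 4 regions over 73.6 kb, was at chr11:68829581-68903175 and included the region of second highest signal. The signals of its other members were 30.2 and 35.0, 4.73 and 6.26, and 15.8 and 15.9 in early G1 replicates 1 and 2. It was not a stretch free of unsynchronized calls, since 9 of its 15 merged regions had one, 4 of them in all 4 libraries.

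The next groups in order held 3 regions each. At chr4:57879295-57969208, none of the 4 merged regions had an unsynchronized call, but a region of all 4 libraries began 531 bp past its edge. The strongest region of the group, chr4:57968542-57969208, had signals of 94.5 and 90.8 on 515 and 559 reads, and its others 24.1 and 6.45, and 14.1 and 15.2. At chr2:75474816-75529597, 5 of 8 merged regions had an unsynchronized call, and signals of the early G1-only ones ran from 14.0 to 47.6. At chr7:134349980-134417613, 3 of 8 had one. There, chr7:134361485-134362027 had signals of 46.8 and 6.07, which differ more than those of the other members of the group.

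A comparison that the rule did not use concerns the neighbours of these regions. For each early G1-only region within 10 kb of a region called in all 4 libraries, the nearest such region was taken, which gave 163 neighbours. Their signal was compared between the states with limma, fitted on log2(signal + 1) over all 4972 regions of all 4 libraries. In early G1 cells 1 neighbour rose and none fell (limma adjusted p under 0.05). Among all 4972 regions, 0.302% rose and 0.0402% fell. At an unadjusted p under 0.05, 27 neighbours (16.6%) were higher and 1 (0.613%) lower, against 13.9% and 0.945% of all. The median log2 change of the neighbours was 0.52 and that of all 4972 regions 0.41. It was 0.45 for neighbours within 5 kb and 0.43 for the 48 within 1 kb, so the nearest neighbours were close to all regions. Of these 48, 12.5% were higher at an unadjusted limma p under 0.05, which was below the 13.9% of all. In 87 neighbours (53.4%) both early G1 libraries lay above both unsynchronized libraries, against 43.9% of all regions, and in 5 (3.07%) below, against 4.67%. For the 48 within 1 kb these shares were 52.1% and 6.25%, both above those of all regions. The called length of the neighbours, early G1 over unsynchronized, had a median log2 ratio of 0.01 and ranged from -4.73 to 2.93. It differed by no more than 2-fold in 138 neighbours (84.7%), against 91.0% of all 4972 regions, and by more in 12 that were longer and 13 that were shorter in early G1.

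The neighbour that rose was chr19:44326884-44328864. In unsynchronized replicates 1 and 2 its signal was 14.2 and 11.2, and in early G1 it was 61.5 and 53.7, so the states did not overlap. The log2 change was 2.10 (SE 0.41, limma adjusted p = 0.045), 4163 bp from an early G1-only region at chr19:44322184-44322720 with signals of 56.5 and 21.8. The call was close to the threshold. No region, neighbour or other, was called when each library was divided by its median. That scaling lowered the median change to 0.07 in the neighbours and to -0.03 in all regions. With 1 library left out, the median change was 0.38 to 0.72 in the neighbours and 0.21 to 0.60 in all regions.

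The other large increases among the neighbours did not pass the test. At chr8:97227431-97228024 the signals were 1033 and 491 against 3574 and 3131, and the log2 change was 2.23 (limma adjusted p = 0.090). This region lay 44 bp from the early G1-only region chr8:97226691-97227386. At chr17:29230695-29232517 they were 10.7 and 6.18 against 37.3 and 42.2, a log2 change of 2.15 (limma adjusted p = 0.059). In both, the early G1 libraries lay above the unsynchronized ones without overlap. At chr8:126001748-126002926 and chr11:68841659-68842530 the log2 changes were 1.91 and 1.88 (limma adjusted p = 0.070 and 0.10). The latter lies inside the group of 4 on chromosome 11.

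None of the 5 largest decreases among the neighbours passed the test. At chr1:173201950-173210236 unsynchronized cells had signals of 6.29 and 9.37 and early G1 cells of 2.16 and 0, with a log2 change of -2.29 (limma adjusted p = 0.30). The called length there was 7093 and 7711 bp against 439 and 119 bp. At chr4:155072148-155078384 the signals were 6.67 and 7.03 against 5.96 and 0, a log2 change of -1.57 (limma adjusted p = 0.45). The early G1 libraries lay below in both regions, and the calls of early G1 replicate 2 with a signal of 0 were 119 and 174 bp long. The remaining 3 were chr17:35309781-35312228 at -1.15, chr12:35208787-35213799 at -0.79 and chr2:120229874-120230549 at -0.67 (limma adjusted p = 0.41 to 0.55).

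**Figure D5:**
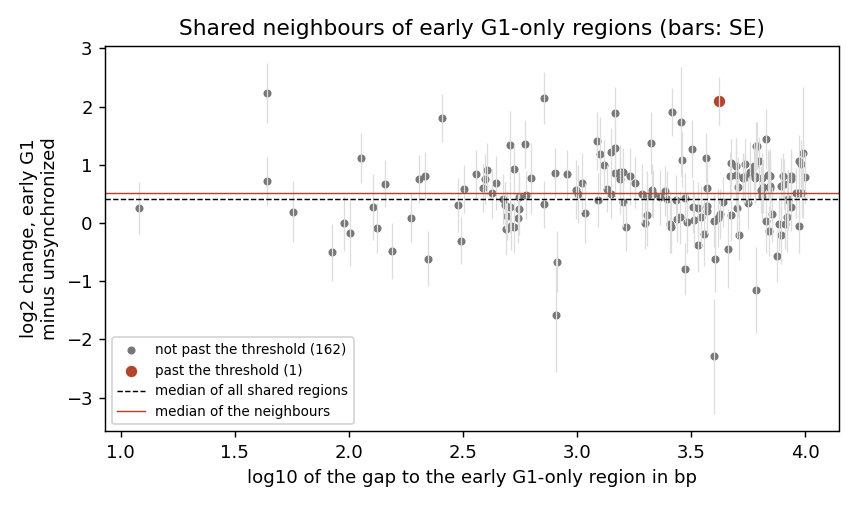
Change in signal of the 163 neighbouring regions called in all 4 libraries (y axis, log2, early G1 minus unsynchronized, on the log2(signal + 1) scale; bars are SE) against the gap to the early G1-only region (x axis, log10 of bp). The only red point, chr19:44326884-44328864 at 2.10, is the 1 that passed the test, and the median of the neighbours (red line, 0.52) lies just above that of all 4972 shared regions (dashed line, 0.41).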

How the data were processed

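Per the file headers, the authors deposited 1 list of convergent transcription regions per library, each with a signal (a geometric mean). Per the submitters' processing notes, BWA 0.7.12, HOMER and mm9 were used. The calling of regions is not described in the sources read here. The square of signal times length was a whole multiple of 1 constant per library for 100% of the 2164 to 3384 regions tested (multiples below 5000, tolerance 0.1), from which reads were recovered. No region was shorter than 101 bp.

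Regions sharing at least 1 base were merged across lists. Where a library had several calls in a merged region, their signals were averaged with the lengths as weights. The percentile of such a region is that of its strongest call. Positions are mm9, counted from 1, and distances are gaps in bases. Neighbours were tested with limma 3.58.1 in R 4.3.3 (lmFit, eBayes with trend, two-sided, Benjamini-Hochberg over 4972 regions), checked on simulated data. Fold changes on the log2(signal + 1) scale understate those of low regions. The rest has no test: with 2 against 2 libraries, the calls had chosen the regions.

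Regions named are the 10 of highest lower signal, the 6 longest by the shorter call, the 4 nearest to and farthest from a region of all 4 libraries, the 3 on either side of the limit, the 4 fullest groups (ties by position), and the neighbours past the threshold plus the 5 largest changes each way. Members and rules were chosen with earlier results of these data known. No sequence is printed, as no mm9 genome was used here.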

Additional observations from a re-analysis of the deposited data

How the results depend on the processing

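The number of early G1-only regions stayed within 1.5 times of 747 under the 6 settings that kept all 4 libraries (608 to 774), and was 1271 to 3202 when 1 library was left out, which also removes a condition of the rule. Leaving out a library gave median lengths of 661 to 1038 bp, median signals of 10.2 to 18.6, median distances to a shared region of 27.4 to 38.9 kb, shares within 10 kb of 26.2% to 32.1% and shares beyond 100 kb of 25.5% to 31.1%. With signals above the 25th percentile of each library, the median signal was 22.3, the median distance 73.6 kb, the share within 10 kb 18.4% and the share beyond 100 kb 42.9%. With at least 20 reads in the early G1 calls the median signal was 18.6, and with lists merged within 1 kb the share within 10 kb was 18.7%. The share beyond 100 kb was added after the distances had been seen.

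The number of neighbours past the threshold was 1. It was 0 with each library divided by its median, without the limma trend, for signal times called length, with lists merged within 1 kb and with the replicate number as a block, and 3 within 50 kb. Without 1 library it was 0 to 8, with the lone library assumed to vary like the other group. At an unadjusted p under 0.05 the main comparison had 27 higher and 1 lower. With each library divided by its median, the median log2 change of the shared neighbours of the members was 0.0737, against -0.0256 over all 4972 regions. Without 1 library it was 0.38 to 0.72, against 0.21 to 0.60 over all regions. Same-numbered libraries deviated from their group means with a correlation of 0.10 over 4972 regions, and the labels do not tie the numbers to a shared batch. Depth limits single regions: reads are few in the weakest, and a missing call has no value. Genes, strands and sequence were not analysed here.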
